A study of Mus musculus with 3 samples.

Results

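The protein 4.1 family comprised 7 mouse genes, Epb41, Epb41l1, Epb41l2, Epb41l3, Epb41l4a, Epb41l4b and Epb41l5, chosen by name. Their RBFOX2 crosslink clusters were those on the gene's own strand with a midpoint inside the gene span of GENCODE M21 on GRCm38. Together the 7 genes held 232 of the 87021 clusters of the list (0.267%) and 9387 of its 2850863 counts (0.329%). Epb41 carried 142 of these clusters, Epb41l5 69, Epb41l2 16, Epb41l4b 4 and Epb41l1 1, whereas Epb41l3 and Epb41l4a had none. Most clusters of Epb41l5 lay in the intron that leads to the last exon of a shorter transcript. Those of Epb41 were spread over its downstream introns and over the last exon of a shorter transcript, and some flanked exon 16, a known target of RBFOX proteins.

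The data came from eiCLIP, in which ultraviolet light (150 mJ/cm2) joins RBFOX2 to RNA in living cells, an antibody to RBFOX2 (RBM9) recovers the complexes, and each cDNA start marks the crosslinked nucleotide. The cells were primary hepatocytes of C57BL6/J mice, cultured on collagen after isolation from the liver, and all of them belonged to 1 group of 3 libraries with no treated or mutant counterpart. The age of the donor mice is not given in the sources used here. The 3 libraries were pooled into 1 list before clusters were called, so no value below has a spread between libraries and no test between groups could be made. Each cluster carries a whole-number count of at least 10. No RNA level was analysed here, so more RNA of a gene and more binding per RNA cannot be told apart in this list.

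Proteins of this family carry a FERM domain, which binds the cytoplasmic tails of membrane proteins. The founding member, encoded by Epb41, also holds a spectrin-actin binding domain and ties the spectrin network to the membrane in red blood cells and many other cells. Its pre-mRNA is a textbook case of regulated splicing: exon 16, which encodes part of the spectrin-actin binding domain, is skipped early and included late in erythroid development, and RBFOX proteins promote its inclusion from UGCAUG elements in the intron downstream. Epb41l1, Epb41l2 and Epb41l3 encode the neuronal, general and brain paralogues that share this domain layout. Epb41l4a, Epb41l4b and Epb41l5 encode more distant relatives with a FERM domain, of which Epb41l5 is required for the cell movements of mouse gastrulation.

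Among the marker genes listed for cell types, those of hepatocytes held a cluster most often. All 8 hepatocyte markers held a cluster, with a summed count of 14274, of which Alb gave 8110. The others ranged from 11 counts (Cyp2e1) to 2337 (Apob). One of 5 endothelial markers (Stab2, 12 counts), 2 of 4 Kupffer cell markers (39 counts in all), 1 of 4 stellate cell markers (Reln, 150 counts) and 0 of 4 erythroid markers did. Of 21951 protein-coding genes 9185 held at least 1 cluster, a background of 41.8%, which rose to 74.3% among the 2492 genes of 100 kb or more. All 7 members are longer than 100 kb, and 5 of the 7 held a cluster.

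A pair of short exons carries the comparison between paralogues. Exon 16 of Epb41 was taken as the only cassette exon of 63 nt in the gene, an internal coding exon skipped by at least 1 annotated transcript, at chr4:131962924-131962986 on the minus strand of GRCm38. Epb41l2 also held a single cassette exon of 63 nt, at chr10:25493567-25493629 on the plus strand. The 2 exons were identical at 52 of 63 positions (82.5%). They are shown 5′ to 3′ with the positions that differ in capitals:
Epb41: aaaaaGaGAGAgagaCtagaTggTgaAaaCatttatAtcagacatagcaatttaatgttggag
Epb41l2: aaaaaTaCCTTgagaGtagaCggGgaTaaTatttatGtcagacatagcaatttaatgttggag
The differences fell mainly in the first part of the exon, and the last 36 nt were identical at 34 positions. Epb41l3 held no 63-nt cassette exon, but the last 36 nt of its cassette exon of 66 nt, at chr17:69274101-69274166 on the plus strand, matched those of Epb41 at 27 positions. That stretch is shown with its differences from Epb41 in capitals:
Epb41l3: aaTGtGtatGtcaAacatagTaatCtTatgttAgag
In Epb41l1, Epb41l4b and Epb41l5 the best of the internal coding exons compared matched at 13 to 15 of the 36 positions. The exon of 43 nt in Epb41 itself matched at 14. Epb41l4a has no value in this comparison.

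Epb41 (ENSMUSG00000028906.16, chr4:131923413-132075321, minus strand) is a gene of 152 kb. Its clusters ranged from 10 to 359 counts with a median of 21 and summed to 5158 counts, with an exact Poisson 95% interval of 5018 to 5301. All such intervals cover counting error only, and neighbouring clusters are not independent of each other. By summed count Epb41 ranked 29th of the 9185 genes with a cluster. Per length it held 0.935 clusters per kb (0.787 to 1.10) and 34.0 counts per kb (33.0 to 34.9), against a median of 0.122 clusters per kb over all genes with a cluster and of 0.0251 over the long ones.

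Epb41l5 (ENSMUSG00000026383.14, chr1:119545037-119649000, minus strand, 104 kb) matched Epb41 in count per length. It held 0.664 clusters per kb (0.516 to 0.840) and 34.8 counts per kb (33.6 to 35.9), so the intervals of the 2 genes overlapped on both scales. Its 3615 counts (3498 to 3735) placed it 56th of 9185 genes. The 90th percentile of all genes with a cluster was 0.662 clusters per kb. Epb41 lay above it. Epb41l5 lay just at it, ranked 917th of 9185 by density, and its interval takes in 0.662.

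The other members were sparse. Epb41l2 (ENSMUSG00000019978.16, chr10:25359798-25523519, plus strand, 164 kb) held 519 counts (475.3 to 565.6), ranked 703rd, and had 0.0977 clusters per kb (0.0559 to 0.159), below the median of all genes with a cluster but above that of the long ones. Epb41l4b (ENSMUSG00000028434.12, chr4:56991972-57143437, minus strand, 151 kb) held 79 counts in 4 intronic clusters of 13, 13, 26 and 27 counts, the highest at chr4:57061275-57061276. This is 0.0264 clusters per kb (0.00720 to 0.0676), close to the median of the long genes. Epb41l1 (ENSMUSG00000027624.19, chr2:156420909-156543214, plus strand, 122 kb) held 1 intronic cluster of 16 counts, at chr2:156530029-156530030. Epb41l3 (ENSMUSG00000024044.18, chr17:69075683-69289989, plus strand, 214 kb) and Epb41l4a (ENSMUSG00000024376.7, chr18:33796327-34006966, minus strand, 211 kb) are the longest of the 7 genes and held no cluster. Since the list starts at 10 counts, a gene without a cluster may still have been crosslinked at a lower level.

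**Figure D1:**
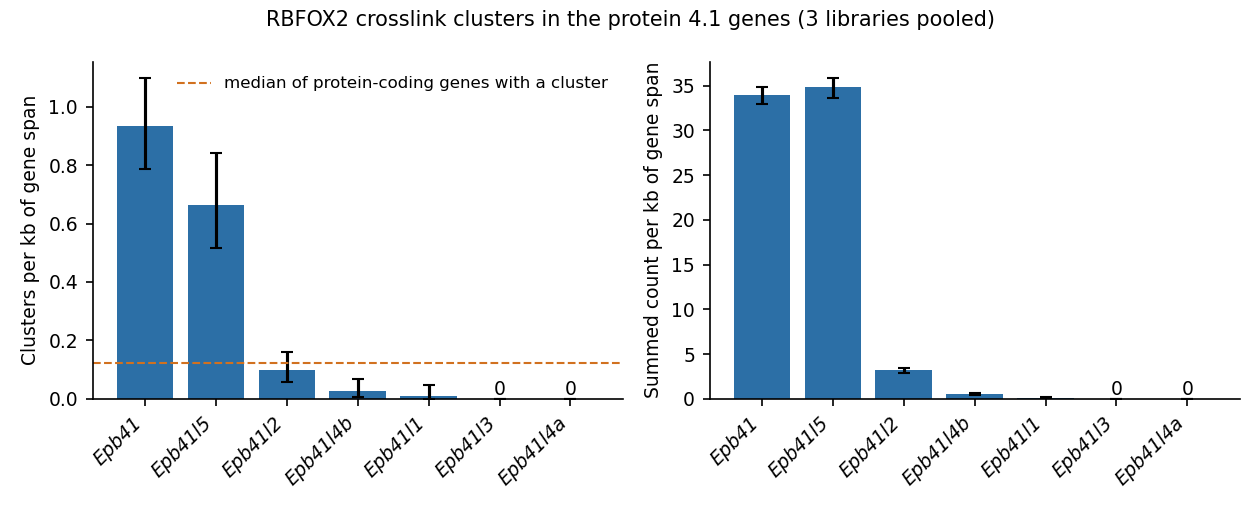
Clusters per kb of gene span (left) and summed count per kb (right) for the 7 genes; bars are values of the pooled list, error bars exact Poisson 95% intervals, and the dashed line the median of 0.122 clusters per kb over genes with a cluster. Epb41 and Epb41l5 stand above the line, Epb41l2 lies near it, and Epb41l3 and Epb41l4a are at 0.

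**Figure D2:**
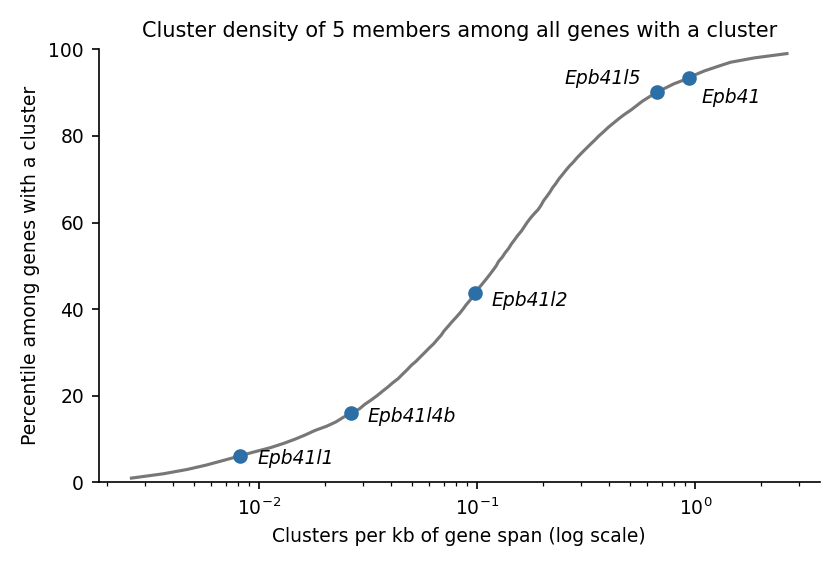
Cumulative distribution of clusters per kb of gene span (log axis) over the 9185 protein-coding genes with a cluster, with 5 members marked. Epb41 and Epb41l5 lie at or above the 90th percentile (0.662 clusters per kb), and Epb41l1 lies near the lower end at 0.00818.

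The clusters of Epb41 and Epb41l5, which make up most of those of the family, were stronger and more crowded than those of the list. Of the 232 clusters, 64 (27.6%, Wilson 95% interval 22.2 to 33.7%) had a count of 39 or more, the top 10% of the list by count, which 10.2% of all clusters reached. Epb41 contributed 39 of these clusters, Epb41l5 22 and Epb41l2 3. The Wilson interval treats clusters as independent, which neighbouring ones are not, so it may be too narrow. The members' median count was 21.5 against 17 in the list, and their median width was 7 nt against 18 nt. When clusters within 200 nt of each other were joined, the 69 clusters of Epb41l5 became 21 intervals and the 142 of Epb41 became 68, which is 30.4% and 47.9% of their number, against 84.3% for the whole list. A number of clusters in these 2 genes therefore counts many narrow peaks of the same stretch. Epb41l2 was close to the list, with a median width of 19.5 nt, a median count of 16.5 and 81.2% of its number left after joining. In Epb41l4b and Epb41l1 no clusters could be joined and none was in the top 10%.

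Most clusters were intronic. By midpoint, 179 of the 232 clusters (77.2%, Wilson 95% interval 71.3 to 82.1%) fell in introns, against 69.4% of the 71533 clusters in protein-coding genes. This interval has the same limit, since many of the clusters are neighbours in the same introns. Epb41 held 100 in introns, 30 in 3′ UTRs, 10 in coding sequence and 2 in non-coding exons. Epb41l5 held 60 in introns, 8 in 3′ UTRs and 1 in coding sequence. All 8 of the 3′ UTR clusters of Epb41l5, and all but 5 of those of Epb41, belonged to the last exon of a shorter transcript, described below. No cluster of any member lay inside another gene of the same strand.

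Along Epb41 the clusters gathered in the downstream part. In transcript Epb41-201, which has 21 exons, the 63189 nt of intron 1 held 11 clusters with 168 counts. Introns 5 to 9, between exons that encode part of the FERM domain, held few clusters beside the downstream part of the gene: the block of 6 exons (5 to 10) of 43, 76, 219, 88, 153 and 98 nt and the introns between them (22.0 kb) held 5 clusters with 72 counts, or 0.227 per kb. This was near the 0.174 per kb of intron 1 and above the median of all genes with a cluster. From intron 12 onwards the density rose. Intron 12 held 7 clusters with 300 counts, intron 15, which follows exon 16, held 29 with 1084 counts in 5104 nt (5.68 per kb), and intron 16 held 72 with 3071 counts in 21775 nt (3.31 per kb). These last 2 introns thus carried most of the 142 clusters. Introns 17 to 20 held none, and the last exon held 5 clusters with 64 counts.

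**Figure D3:**
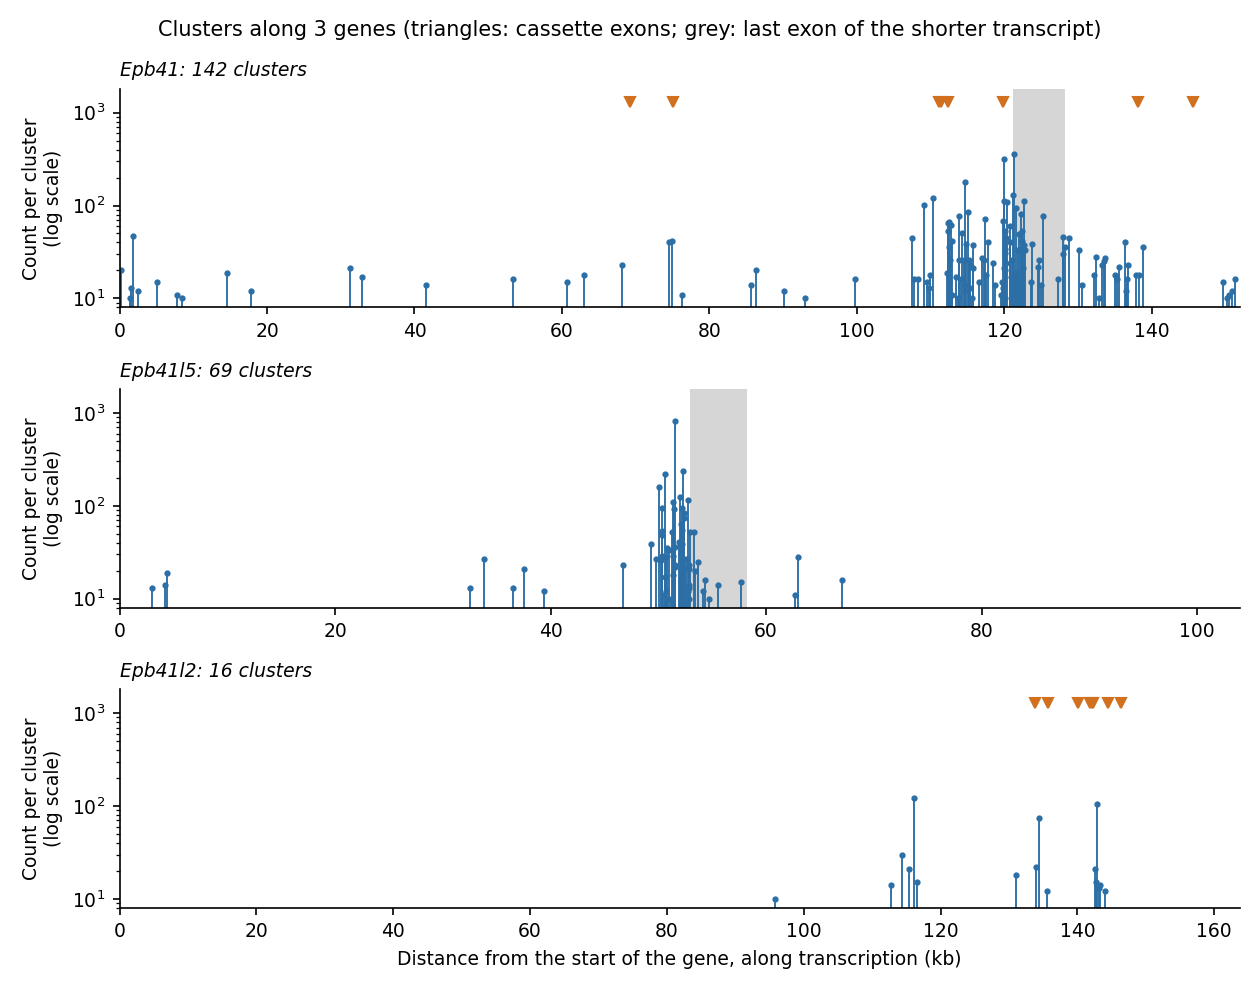
Count of each cluster (log axis) against its distance from the start of the gene in kb along transcription, for Epb41, Epb41l5 and Epb41l2. Triangles mark cassette exons and grey bands the last exon of the shorter transcript: 29 and 72 of the 142 clusters of Epb41 lie in 2 neighbouring introns, 58 of the 69 of Epb41l5 in 1 intron, and most of those of Epb41l2 in 3 groups.

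Exon 16 of Epb41 was flanked by clusters on both sides. Because of transcripts that differ upstream it is numbered exon 15 in Epb41-201. Of the annotated protein-coding transcripts, 8 use it and 5 skip it. Within 500 nt of intron, 7 clusters with 304 counts were found. On the upstream side lay 2 with 72 counts: 1 of 53 counts at chr4:131962984-131962990, which straddles the 3′ splice site, and 1 of 19 counts whose midpoint is 115 nt before the exon. On the downstream side lay 5 with 232 counts, at 103 nt (67 counts), 152 nt (36), 205 nt (26), 370 nt (61) and 460 nt (42) after the exon. A further cluster of 65 counts, at chr4:131962931-131962938, lay within the exon. The bases of the exon that lie in a cluster are shown in capitals, 11 of the 63:
Epb41 exon 16: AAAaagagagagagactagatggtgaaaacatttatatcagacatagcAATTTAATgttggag
The 3 capitals at its 5′ end belong to the cluster on the splice site. Downstream of the 500-nt window the clusters went on through the intron, with the highest, 180 counts, 2320 nt after the exon. Joined within 200 nt, the 7 clusters beside the exon formed 1 interval, which also took in the cluster inside the exon and the next one downstream, of 11 counts at 519 nt.

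The 63-nt exon of Epb41l2 had fewer and weaker neighbours. It is exon 13 of Epb41l2-201, used by 3 transcripts and skipped by 2. One cluster lay within 500 nt, at chr10:25493772-25493801, 157 nt after the exon with 22 counts, and none lay upstream, where the intron has only 239 nt in its shortest form. A stronger cluster of 75 counts followed at 544 nt. Over the whole gene span Epb41l2 was also sparser, with 3.17 counts per kb against 34.0 in Epb41. Whether the 2 exons differ beyond this gene-wide difference was not tested. In Epb41 the clusters downstream of the exon outweighed those upstream, 232 against 72 counts, whereas the single cluster of Epb41l2 allows no such comparison. The cassette exon of 66 nt in Epb41l3 had no cluster on either side, like the rest of that gene.

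**Figure D4:**
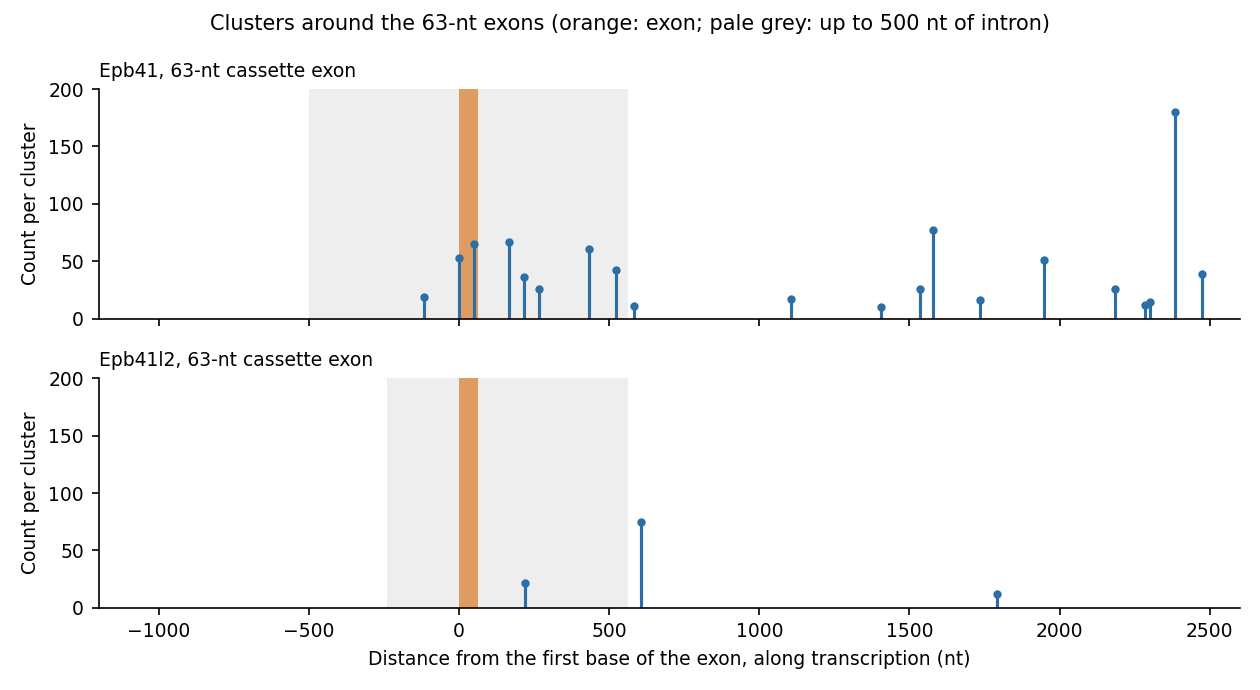
Count of each cluster against its distance in nt from the first base of the 63-nt cassette exon, along transcription, in Epb41 (top) and Epb41l2 (bottom). Orange marks the exon and pale grey up to 500 nt of the adjacent introns, which hold 7 clusters in Epb41 and 1 in Epb41l2.

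Other cassette exons of the family were tallied in the same way. The 7 genes had 29 cassette exons, of which 9 had a cluster within 500 nt of intron, 6 upstream and 6 downstream. Over all protein-coding genes 1801 of 15849 cassette exons had one, a background of 11.4% (6.56% upstream and 6.85% downstream). All 9 belonged to Epb41 (4 of 8) and Epb41l2 (5 of 8), and no cassette exon of Epb41l1 (0 of 3), Epb41l3 (0 of 8) or Epb41l4b (0 of 2) had one. Forms of an exon that differ at 1 end were counted separately, as in the background. Of the 5 in Epb41l2, 2 are such forms, of 315 and 564 nt, and share a cluster of 15 counts. Epb41l5 had no cassette exon. Epb41l4a has 1 annotated protein-coding transcript, so neither cassette nor constitutive exons could be defined in it. Of 88 constitutive exons of the 7 genes, 6 had a cluster nearby, against a background of 6.70% over all genes. Within Epb41 this was 1 of 8 constitutive exons, in Epb41l5 3 of 22, in Epb41l4b 2 of 18 and in Epb41l2 0 of 11. The 2 in Epb41l4b lie on either side of an intron of 161 nt and share its single cluster of 13 counts. Over the whole gene span, Epb41 held 0.935 clusters per kb and Epb41l2 0.0977. Whether the share of cassette exons with a cluster follows cluster density was not tested.

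In Epb41 the exon of 36 nt at chr4:131955543-131955578, used by Epb41-219 and skipped by 11 transcripts, had more clusters beside it than exon 16. Within 500 nt lay 13 clusters with 710 counts. Of these 11, with 684 counts, were downstream, led by 1 of 321 counts at chr4:131955300-131955321, 233 nt after the exon, and 1 of 112 counts at 134 nt. The other 9 downstream had 10 to 53 counts. The 2 upstream clusters had 15 counts at 21 nt and 11 counts at 225 nt before the exon. A cluster of 69 counts lay inside it, and its 7 bases are in capitals:
Epb41 36-nt exon: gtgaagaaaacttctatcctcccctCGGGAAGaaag
The exon of 450 nt at chr4:131937015-131937464 had 1 upstream cluster of 18 counts at 64 nt and 2 downstream, of 18 counts at 23 nt and 36 counts at 493 nt. The exon of 105 nt at chr4:132000200-132000304, exon 4 of Epb41-201, had 1 upstream cluster of 41 counts, at chr4:132000288-132000420. It is 133 nt wide and straddles the 3′ splice site, with its midpoint 50 nt before the exon. The exons of 42, 57, 75 and 102 nt had none.

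In Epb41l2 most clusters fell into 3 groups. The 3 outside them had 10 counts in intron 3, 14 counts in intron 7 and 18 counts in a 5′ UTR. The first, in intron 8 within the FERM exons, held 4 clusters with 187 counts and the highest of the gene, 121 counts at chr10:25475783-25475975. The second lay around the 63-nt exon and the exon of 147 nt that follows it, which had 1 cluster of 12 counts 88 nt upstream. The third lay around the exons that begin at position 25501824 on chromosome 10 and end either after 315 or after 564 nt. Downstream of the longer form were clusters of 15 counts at 109 nt and 106 counts at 344 nt, and 1 of 21 counts lay inside it. Downstream of the shorter form the latter fell at 130 nt and the cluster of 15 counts at 358 nt, so these 2 exons share their clusters. Further on in the same intron lay clusters of 13 and 14 counts. The exon of 123 nt after them had 1 cluster of 12 counts 278 nt upstream. The block of FERM exons in Epb41l2 (11.7 kb) held 5 clusters, 0.428 per kb, whereas in Epb41l1 (12.4 kb) and Epb41l3 (17.7 kb) the same block held none.

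The strongest concentration in the family was in Epb41l5, in the intron that precedes the last exon of a shorter transcript. Epb41l5-208 has 17 exons and ends in an exon of 5318 nt at chr1:119590742-119596059, whereas Epb41l5-202 skips this exon and runs on for 45.7 kb to the far end of the gene. The intron before it, chr1:119596060-119599004, is 2945 nt long. It held 47 of the 69 clusters (68.1%) and 3175 of the 3615 counts (87.8%), or 15.96 clusters per kb (11.7 to 21.2). Of the 47, 20 were in the top 10% of the list. They covered 293 nt of the intron with a median gap of 35.5 nt and formed 2 intervals when joined within 200 nt.

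The highest cluster of the family, 816 counts at chr1:119597383-119597430, lay in this intron and alone made up 22.6% of the count of Epb41l5. Next were clusters of 234 counts at chr1:119596694-119596722, 220 at chr1:119598336-119598381 and 159 at chr1:119598868-119598909. They were thus spread over the intron rather than gathered at 1 splice site. The last exon of Epb41l5-208 itself held 8 clusters with 164 counts, all in its 3′ UTR. Its final coding stretch, chr1:119595882-119596059 on the minus strand, holds 178 nt and no cluster base, and is shown here as the sequence that the intron joins on its 3′ side:
Epb41l5-208: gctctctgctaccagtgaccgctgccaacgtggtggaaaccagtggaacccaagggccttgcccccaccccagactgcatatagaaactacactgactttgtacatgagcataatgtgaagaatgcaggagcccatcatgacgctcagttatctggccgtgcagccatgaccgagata
Past the end of this exon the gene was almost free of clusters, with 3 clusters and 55 counts in 45.7 kb, 0.0656 clusters per kb. These were 4.35% of the clusters of Epb41l5, on 44.0% of its span.

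Epb41 also held clusters around the last exon of a shorter transcript. Epb41-219, which holds the 36-nt exon, ends in an exon of 7097 nt at chr4:131947097-131954193, inside intron 16 of Epb41-201. Its annotation is incomplete at the 5′ end. The intron before that last exon, chr4:131954194-131955542, is 1349 nt long and held 17 of the 142 clusters with 950 counts, 12.6 clusters per kb (7.34 to 20.2) and 18.4% of the count of the gene. The 17 include the 11 clusters with 684 counts already given as downstream of the 36-nt exon. The last exon held 29 clusters with 1470 counts, 4.09 per kb. Unlike in Epb41l5, clusters also continued past its end, 25 clusters with 542 counts in 23.7 kb (1.06 per kb), 17.6% of the clusters on 15.6% of the span.

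The highest cluster of Epb41, 359 counts at chr4:131953966-131954029, lay at the end of the coding sequence of this last exon and reached into its 3′ UTR. A cluster of 129 counts at chr4:131954180-131954202 straddled the 3′ splice site at its start. The coding stretch of the exon, chr4:131953972-131954193 on the minus strand, is 222 nt long, and the 77 bases that lie in any of 4 clusters are in capitals:
Epb41-219: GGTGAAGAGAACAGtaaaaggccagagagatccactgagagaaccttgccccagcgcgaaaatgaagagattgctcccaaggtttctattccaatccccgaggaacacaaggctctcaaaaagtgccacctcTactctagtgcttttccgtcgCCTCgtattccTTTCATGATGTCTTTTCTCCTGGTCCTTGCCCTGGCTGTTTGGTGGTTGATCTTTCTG
The long run at the 3′ end is the highest cluster and the run at the 5′ end is the one on the splice site.

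**Figure D5:**
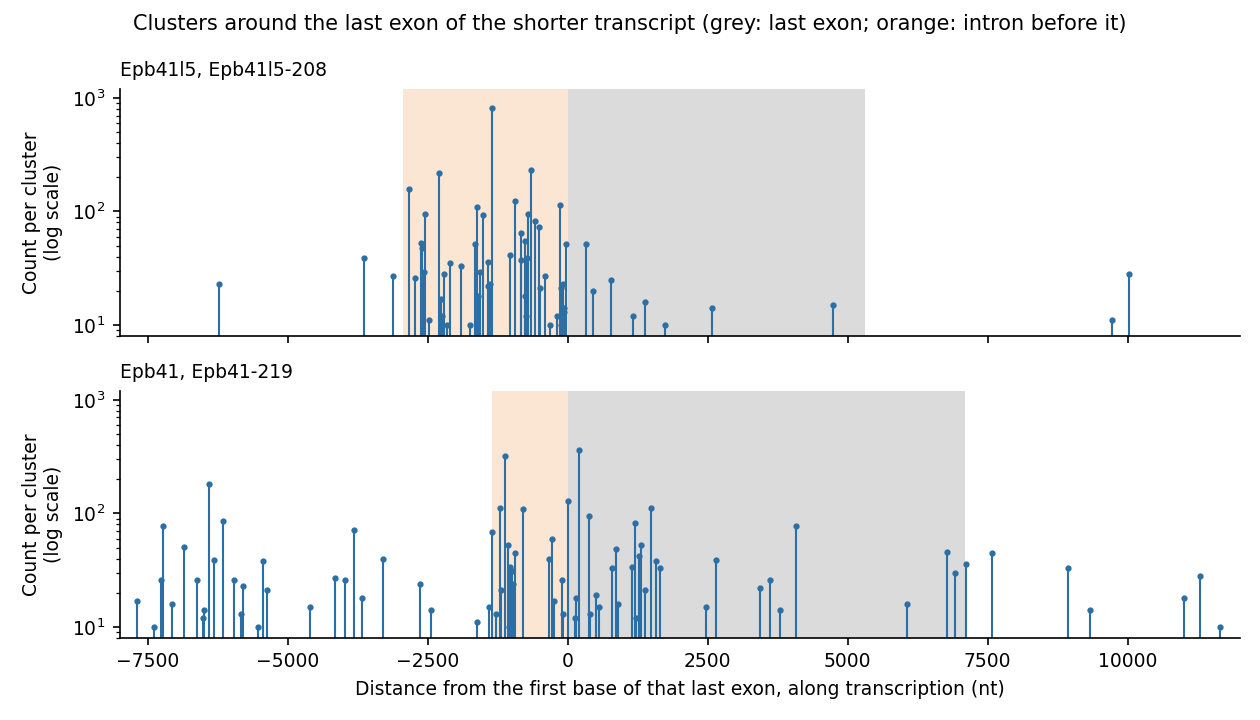
Count of each cluster (log axis) against its distance in nt from the first base of the last exon of the shorter transcript, along transcription, in Epb41l5 (top) and Epb41 (bottom). Orange marks the intron before that exon, with 47 and 17 clusters, and grey the exon itself, with 8 and 29.

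These 2 introns were compared with the same position in other genes. Of the genes with at least 10 clusters, 457 had an annotated protein-coding transcript that ended 5 kb or more before the end of another, and in 455 of them the shorter transcript had an intron before its last exon. That intron held at least 1 cluster in 182 genes (40.0%), and the median was 0. By clusters per kb in it, Epb41l5 ranked 1st and Epb41 2nd of the 455, and by summed count per kb 1st and 3rd. By intervals joined within 200 nt, of which each gene had 2, they ranked 56th and 21st. With median gaps of 35.5 nt in Epb41l5 and 38.5 nt in Epb41, clusters join into few intervals whatever their counts. The rank by intervals therefore says little about strength, and the rank by clusters counts many narrow peaks. Summed count depends less on how peaks are split, but it does not separate RNA level, which was not analysed, from binding. Over the 457 genes a median of 28.6% of clusters lay past the shorter end, on a median of 24.7% of the span, and 57 genes had a lower share past it than Epb41l5, whereas 151 had a lower share than Epb41. These introns were examined after the clusters had been seen, so the ranks describe the list and have no test.

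The RBFOX motif could be read only where annotated exons cover the sequence, which leaves out nearly all of the introns described above. Of the members' clusters, 51 had a fully covered window that reached 50 nt on each side of the midpoint. GCATG, the DNA form of GCAUG on the transcribed strand, was found in 6 of them (11.8%, Wilson 95% interval 5.51 to 23.4%). The whole list had 15.9% of 21805 such windows, which is inside the interval. The order of the 2 shares depended on the setting: with 20 nt on each side the members had 11.5% (6 of 52) against 6.55%, and with TGCATG 7.84% against 7.90%. The members' share was near the 9.92% of all windows of the first length in the 7 genes. By gene it was 4 of 39 in Epb41, 2 of 9 in Epb41l5 and 0 of 3 in Epb41l2. All 6 windows lay in the 3′ UTRs of the 2 shorter transcripts.

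The sites are shown with the motif in capitals and 12 or 13 nt on each side, since they are the motifs nearest to crosslinks that could be read:
Epb41 chr4:131952960-131952989: tgtgtccagtctGCATGttggttatgaggc
Epb41 chr4:131952856-131952885: tctattaaccttGCATGacgtcgcttgctt
Epb41 chr4:131947274-131947303: aggcatctctttGCATGtgttcaattctta
Epb41l5 chr1:119595277-119595306: aatgcaataacaGCATGgttcatgtagaga
Epb41l5 chr1:119594678-119594707: aaaatatttagaGCATGaaattcataggca
The first belonged to 2 neighbouring clusters, of 82 counts (4 nt from the midpoint to the first base of the motif) and 12 counts (9 nt). The second went with a cluster of 53 counts at 12 nt and the third with 1 of 30 counts at 9 nt. In Epb41l5 the clusters had 25 counts at 6 nt and 16 counts at 16 nt. All 5 sites thus began within 16 nt of a cluster's midpoint.

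Among the partners of the family in the membrane skeleton, 11 of 20 listed genes held a cluster, with a median of 10 clusters and 221 counts among those that did, against 3 clusters and 63 counts over all protein-coding genes with one. The highest were Sptan1, the non-erythroid alpha spectrin, with 2381 counts (rank 96), Actb, cytoplasmic beta actin, with 2145 counts (rank 114), and Sptbn1, a beta spectrin of most tissues, with 1151 counts (rank 257). Those without a cluster included the red cell beta spectrin Sptb, the anion exchanger Slc4a1 and the glycophorin Gypc, and also Sptbn4, Add2, Add3, Dmtn and Tmod1. Per length, Actb (8.79 clusters per kb) and Sptan1 (1.41) lay above the 0.935 of Epb41 and Sptbn1 (0.290) below it.

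Of 23 other genes with a FERM domain, 16 held a cluster, with a median of 7 clusters and 150 counts. Farp1, a guanine nucleotide exchange factor, stood apart with 170 clusters and 5262 counts (rank 27), or 0.684 clusters per kb, close to the 0.664 of Epb41l5. Tln1, the integrin activator talin, had 954 counts (rank 327, 1.44 clusters per kb) and Rdx, the membrane-actin linker radixin, 661 (rank 518, 0.529 clusters per kb). Ezr, Fermt1, Fermt3, Ptpn13, Frmd3, Frmd5 and Mylip had none. Both shares, 11 of 20 and 16 of 23, lay above the background of 41.8% of protein-coding genes, to which long genes contribute more often than short ones. They lay below the 74.3% of protein-coding genes of 100 kb or more. Both lists mix genes of that length with shorter ones, and no background of matched length was made. Whether the shares exceed what gene length alone would give was therefore not tested.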

How the data were processed

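RNA bound to RBFOX2 was measured by eiCLIP in 3 libraries of primary hepatocytes of C57BL6/J mice. The labels give 3 livers and 3 pellets per library, while the methods of the study describe independent cultures from a pair of mice each. The labels name CASAVA 1.8.4, cutadapt and STAR 2.4.2a. The authors trimmed adaptors, aligned reads end to end to GRCm38, kept uniquely mapped reads, collapsed those with the same position and random barcode, and grouped cDNA starts into clusters with Paraclu. The deposited list pools the libraries and gives a whole-number count per cluster, read here as pooled cDNA starts. Depth per library and spread between libraries are thus unknown, and the input control was not used here.

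Clusters were placed by midpoint and strand with GENCODE M21 (the study names M20) in Python 3.11.15, numpy 2.4.6, scipy 1.17.1 and matplotlib 3.10.9. Where transcripts gave a midpoint several classes, coding sequence came first, then 3′ UTR, 5′ UTR and non-coding exon, with intron last, and retained-intron transcripts were ignored. Cassette exons are internal exons of protein-coding transcripts that another such transcript skips, constitutive exons those that all of at least 2 spanning transcripts use. Sequence came from the annotated GENCODE M21 transcripts placed on GRCm38. Intervals are exact Poisson for counts and Wilson for shares, at 95%. Neither kind allows for the dependence between neighbouring clusters. The placement code was tested on simulated data. Alternatives changed the count filter, the joining of clusters, the windows, the transcripts used, the motif and the overlap rule.

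Members and lists were chosen with earlier results of these data known. The rule for names was the 7 members, each with its highest cluster and every cluster within 500 nt of a cassette exon, and, from the partner and FERM lists, the 3 genes with the highest summed count and those without a cluster. The shorter transcripts and their clusters, and the alternatives for them, were chosen after seeing the data. One listed partner gene is not reported here.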

Additional observations from a re-analysis of the deposited data

Results flagged for a closer look

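Clusters on the strand opposite to a member were not used in any comparison above and carried signal. There were 7 such clusters with 132 counts inside the spans of the 7 genes. By summed count there were 19 counts opposite to Epb41 (1 cluster), 59 opposite to Epb41l2 (3 clusters), 34 opposite to Epb41l3 (2 clusters) and 20 opposite to Epb41l4a (1 cluster), and none opposite to Epb41l1, Epb41l4b or Epb41l5. None of the 7 had an annotated gene on its own strand. Epb41l3 and Epb41l4a, which held no cluster on their own strand, thus held opposite ones. Their highest single count was 29, in Epb41l2. The origin of these clusters was not tested.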

How the results depend on the processing

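No paired analysis was possible because the 3 libraries were pooled into 1 list, and for the same reason no library could be left out. Of 39 alternatives over 10 results, 21 stayed close to the value given above (a count within 1.5 times, a share or density within its 95% interval) and 18 did not. With clusters at or above the median count, the 7 genes held 148 clusters and Epb41 0.599 clusters per kb, and with the top 10% they held 64 clusters and 6215 counts, Epb41 0.257 clusters per kb, with 4 cassette exons with a cluster nearby, 4 clusters beside exon 16 of Epb41, and 12 rather than 27 genes of the partner and FERM lists with a cluster. Joining clusters within 200 nt left 107 clusters in the 7 genes and 1 beside exon 16. Per kb of intron Epb41 held 0.735 clusters. With transcripts tagged basic only, which leave out Epb41-219, the intronic share was 90.9% rather than 77.2%. GCATG stood in 25.0% of windows that reached 100 nt on each side, against 27.2% in the whole list, and its reverse complement CATGC in 3.92%, against 10.2%. With 20 nt on each side the order turned, 11.5% against 6.55% in the whole list. Past the shorter end, Epb41 kept 15 of its 25 clusters at the median filter and 2 in the top 10%, and Epb41l5 kept 1 and 0 of 3. Counting error is small for Epb41 and Epb41l5 and wide for Epb41l1, whose single cluster of 16 counts has an interval of 9.145 to 25.98.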
